A study of Boehmeria nivea with 12 samples.

Results

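A list of 150 unigenes with lower expression after water culture in both ramie cultivars was taken from a table of 66881 unigenes. Unigenes are de novo assembled transcripts that Trinity put together as 1 gene. Values were compared as log2(FPKM + 1), where FPKM is the fragment count scaled by unigene length and library size, so 1 unit stands for a 2-fold difference of FPKM + 1. For H4 the mean of H4T1, H4T2 and H4T3 was compared with that of H4CK2 and H4CK3, and for Z2 the mean of Z2T2 and Z2T3 with that of Z2CK1, Z2CK2 and Z2CK3. The libraries labelled H4CK1 and Z2T1 were not used to choose the list. A unigene qualified when its highest treated library lay under its lowest untreated library within each cultivar, which held for 2986 unigenes. Of these, 1179 had a difference of -0.8 or lower in both cultivars. The 150 members were chosen by the lowest values of the weaker of these 2 differences, and all 12 libraries are shown for them. Because these differences chose the list, they are given as a description without a test.

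RNA was from ramie stems, of Huazhu No 4 (H4) or of Zhongzhu No 2 (Z2), in all groups. Treated stems (Z2T and H4T) were the submerged segments of cut shoots kept in tap water for 10 days. Untreated stems (Z2CK and H4CK) were cut from the mother plants without water culture. Each group had 3 libraries, described as biological replicates of 5 pooled plants. Cutting, submersion and the days in the flask changed together, so their shares in a difference cannot be told apart. The shoots were lateral branches of topped greenhouse plants, whose age the labels do not state.

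Adventitious roots are roots that arise from stems or other tissues that are not roots. In cuttings, stem cells close to the vascular tissue divide again, organise a root primordium and push it out through the outer tissues, a process that depends on auxin and other hormones. Submersion also lowers the supply of oxygen and light to the stem, and cutting wounds it and separates it from the mother plant. The table pairs no unigene with a gene name or a sequence, so no role, pathway or stem cell type can be assigned to the members, and each is named by its Trinity identifier. In bulk stems, fewer cells of a type and less RNA per cell cannot be told apart.

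Library totals of FPKM lay between 914642 and 1061225, and the reads behind a single value are not known. Of all unigenes, 27628 reached an FPKM of 1 in 3 or more libraries and entered the tests, among them all 150 members. The library labelled H4CK1 resembled Z2T2 and Z2T3, and the library labelled Z2T1 resembled H4CK2 and H4CK3. Across the 150 members, Pearson's r of H4CK1 was 0.95 and 0.96 for Z2T2 and Z2T3, but 0.76 and 0.75 for H4CK2 and H4CK3. That of Z2T1 was 0.91 and 0.89 for H4CK2 and H4CK3, but 0.76 and 0.74 for Z2T2 and Z2T3. These r are across unigenes, which are not independent replicates. They leave out H4T and Z2CK, for which distances are given below. Deposited labels were kept, and each result that rests on the 2 libraries is given with and without them.

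Members were abundant in untreated stems and of average level in treated stems. The rule chose them by a large treated minus untreated difference, whose size is limited by the untreated level on the scale used. It thus favoured unigenes with high untreated and lower treated levels. Levels and percentiles in the libraries used by the rule are therefore given as a description. Their median FPKM was 50.7 in H4CK2 and 68.9 in H4CK3, and 49.1, 67.4 and 40.9 in Z2CK1 to Z2CK3. It was 5.56, 7.42 and 5.26 in H4T1 to H4T3, and 5.26 and 4.80 in Z2T2 and Z2T3. The library labelled H4CK1 had a median of 5.70, among the treated libraries, and the library labelled Z2T1 one of 59.4, among the untreated libraries. The median over all 27628 tested unigenes lay between 6.75 and 8.58 in every library. By their mean over the 5 untreated libraries used, 107 of the 150 members belonged to the highest 25% of the tested unigenes and 47 to the highest 5%. The median member stood at percentile 87.6 in untreated stems and at percentile 45.9 in treated stems.

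Summed over the members, the FPKM was 3.14% of the library total in H4CK2 and 2.54% in H4CK3, and 0.315%, 0.288% and 0.243% in H4T1 to H4T3. In Z2 it was 2.12%, 2.38% and 1.86% in Z2CK1 to Z2CK3, and 0.223% and 0.202% in Z2T2 and Z2T3. The remaining libraries held 0.243% (H4CK1) and 3.27% (Z2T1), so each of them went with the opposite treatment. The 5 highest members of a library made up between 18.9% (Z2CK2) and 39.5% (H4CK2) of this sum.

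In H4 the treated mean was lower than the untreated mean by a median of -2.80 on the log2(FPKM + 1) scale, a 6.96-fold difference of FPKM + 1, with members between -7.32 and -2.03. In Z2 the median was -2.59, a 6.03-fold difference, with members between -7.29 and -2.02. Over all tested unigenes the median was 0.13 in H4 and 0.00085 in Z2. Treated libraries lay wholly under the untreated ones for 18.2% of tested unigenes in H4, for 23.2% in Z2 and for 10.3% in both, a condition that every member meets by the rule. With all 12 libraries as labelled, the median difference of the members was -1.83 in H4 and -1.59 in Z2. The median standard error of a member was 0.44 with the 10 libraries and 1.01 with all 12. For 141 members the 5 untreated libraries used also lay above all 5 treated ones across cultivars, against 6.83% of tested unigenes. The rule compared libraries within each cultivar only, but with changes of -2.02 or lower it made such an order likely, and the count is a description. Levels of the other 9 overlapped between the cultivars.

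**Figure D1:**
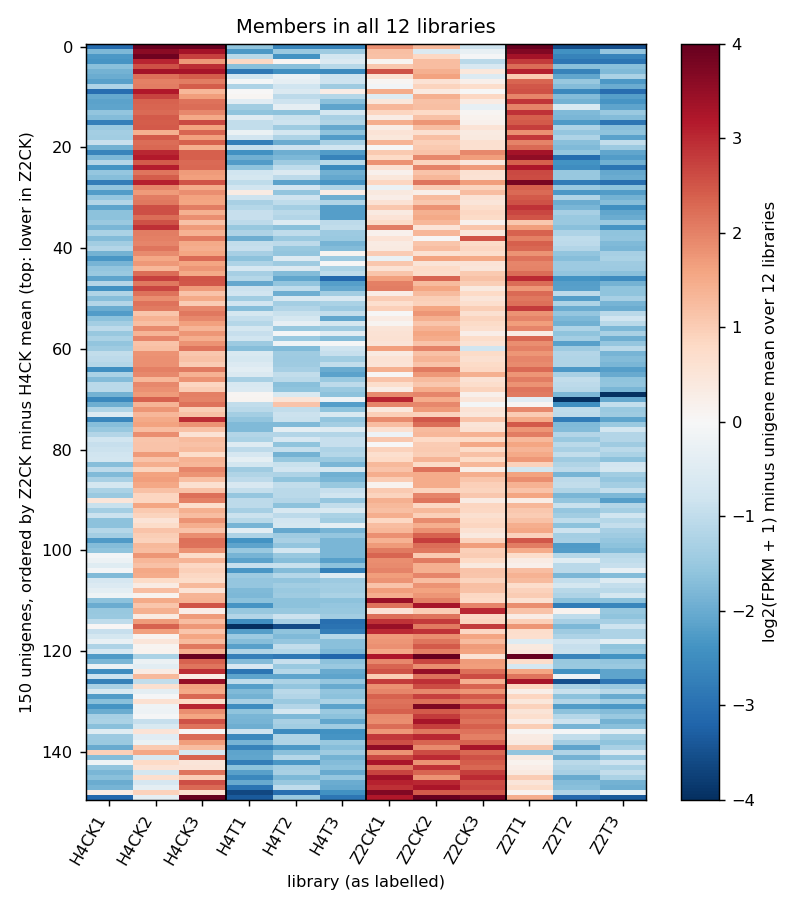
Each row is 1 of the 150 members and each column 1 of the 12 libraries as labelled. The colour gives log2(FPKM + 1) minus the mean of that unigene over the 12 libraries, in log2 units, with rows ordered by the Z2CK mean minus the H4CK2 and H4CK3 mean. H4CK1 shows the blue of the treated libraries and Z2T1 the red of the untreated ones in most rows.

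Among the 10 members with the largest differences were some with little left in treated stems. TRINITY_DN38171_c0_g1 had an FPKM of 6.91 and 184 in H4CK2 and H4CK3, 0, 2.57 and 0.37 in H4T, 93.3, 363 and 141 in Z2CK, and 0.17 and 0 in Z2T2 and Z2T3. Its 2 left-out values were 0.17 in H4CK1 and 27.0 in Z2T1. The H4CK libraries differed widely from each other, and the change of the group means was -4.49 in H4 and -7.29 in Z2. TRINITY_DN34816_c0_g2, first in the list, had 2.97 and 253 in H4CK2 and H4CK3, 0.45, 0.32 and 0.07 in H4T, 89.1, 174 and 13.4 in Z2CK, and 0.54 and 0.84 in Z2T2 and Z2T3. Its value was 1.00 in H4CK1 and 221 in Z2T1, and the changes were -4.64 in H4 and -5.18 in Z2. Every untreated library used for it stood above every treated one, with H4CK2 the lowest of them by far.

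TRINITY_DN42267_c3_g2 showed the largest change in H4, at -7.32. Its FPKM was 3544 and 916 in H4CK2 and H4CK3 and 17.2, 8.11 and 7.62 in H4T. In Z2 it was 197, 136 and 30.4 in Z2CK and 3.74 and 3.86 in Z2T2 and Z2T3, a change of -4.30. The 2 left-out libraries gave 5.61 (H4CK1) and 1360 (Z2T1), at the level of Z2T and of H4CK. This unigene alone made up 12.0% of the summed FPKM of the members in H4CK2.

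The other members among the first 10 had changes of -3.68 to -5.94 in H4 and of -3.70 to -5.01 in Z2. TRINITY_DN36358_c1_g1 went from 84.6 and 55.8 in H4CK2 and H4CK3 to 4.01, 1.29 and 0.94 in H4T, and from 17.0, 43.3 and 30.6 in Z2CK to 0.45 and 0.25 in Z2T2 and Z2T3. TRINITY_DN37826_c1_g2 went from 129 and 112 to 7.94, 3.72 and 1.25 in H4, and from 59.8, 97.5 and 43.6 to 2.78 and 2.44 in Z2. Both had H4CK1 under 4 FPKM and Z2T1 above every Z2CK library. TRINITY_DN32869_c0_g1 was at 95.7 and 93.3 in H4CK2 and H4CK3 and at 0.32, 0.73 and 0.64 in H4T, against 54.8, 24.8 and 12.2 in Z2CK and 0.49 and 1.83 in Z2T2 and Z2T3. TRINITY_DN31554_c0_g1 was at 50.1 and 318 in H4CK2 and H4CK3 and at 4.33, 17.6 and 9.02 in H4T, against 238, 456 and 187 in Z2CK and 6.61 and 8.45 in Z2T2 and Z2T3. The former changed more in H4 and the latter more in Z2.

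Of the 5 most abundant members, TRINITY_DN42267_c3_g2 was under 18 FPKM in the 5 treated libraries used, and the other 4 were above 20 FPKM in each of them. TRINITY_DN34438_c0_g2 had the highest mean untreated level of the list, 2040 FPKM, with 3837 and 2512 in H4CK2 and H4CK3 and 982, 1050.4 and 1816 in Z2CK. Its treated values were 88.7, 122 and 100.1 in H4T and 164 and 112 in Z2T2 and Z2T3. The library labelled Z2T1 held 4784 FPKM, above every other library, and H4CK1 75.8, below every other. TRINITY_DN33250_c0_g1 (482.9 to 1667 FPKM in the 5 untreated libraries used, 105 to 199 in the 5 treated ones) and TRINITY_DN33159_c3_g1 (630.1 to 942 and 120.3 to 230.1) had the smallest changes among the 5 most abundant members, at -2.32 in Z2 and at -2.09 in H4.

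**Figure D2:**
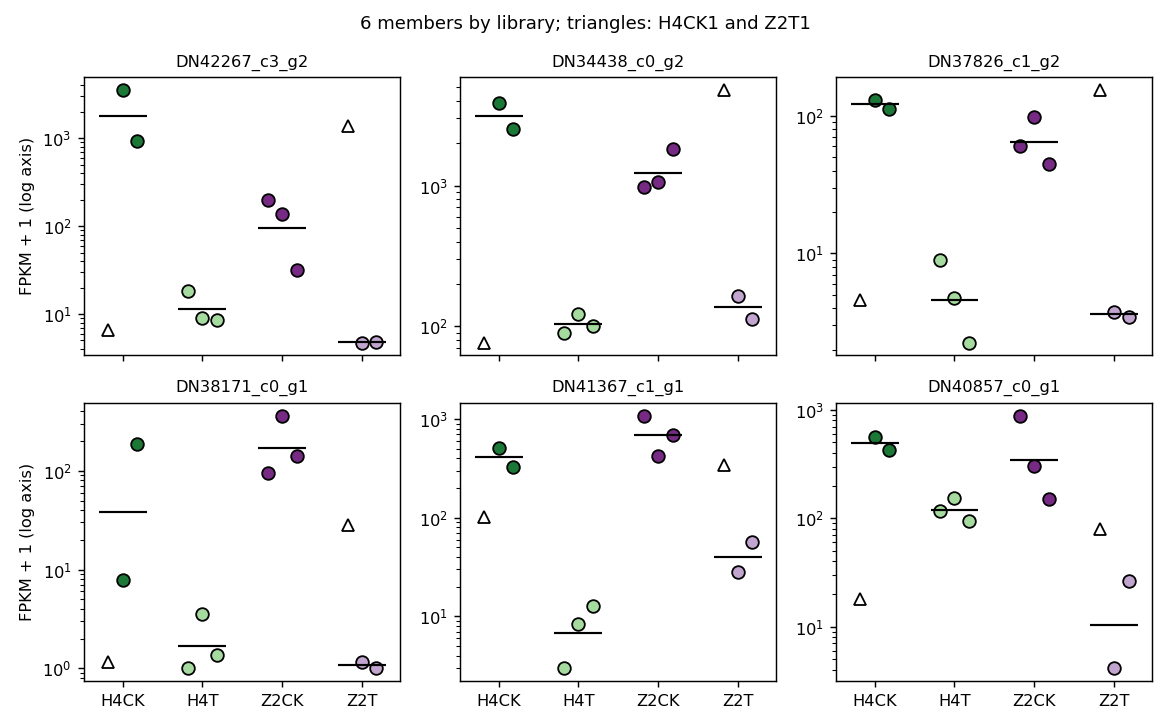
FPKM + 1 on a log axis for 6 members, by group as labelled, with 1 point a library and a line at the mean of log2(FPKM + 1) over the libraries used by the rule. Open triangles are H4CK1 and Z2T1, which stand at the level of the opposite treatment in DN42267_c3_g2, DN34438_c0_g2 and DN37826_c1_g2, and between the levels in DN41367_c1_g1.

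Levels spread over more than 2 orders of magnitude. Mean untreated FPKM ran from 4.04 to 2040, with 57 members at 100 or more, 83 from 10 to under 100 and 10 under 10. In all 5 untreated libraries used, 104 members had at least 10 FPKM, and 0 were listed at 0. In the 5 treated libraries used, 34 members kept at least 10 FPKM throughout, 108 at least 1, and 10 stayed under 1 throughout. Listed at 0 in at least 1 of these 5 were 15 members, and in all 5 only TRINITY_DN41986_c0_g1 and TRINITY_DN41247_c0_g1, which are named here after their values were seen. TRINITY_DN41986_c0_g1 had 7.96 and 7.15 FPKM in H4CK2 and H4CK3, 33.4, 11.7 and 4.43 in Z2CK, 3.80 in Z2T1 and 0 in H4CK1. Without read counts, a value of 0 may lie under what the depth could show.

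In the 10 libraries used, the measured change differed between the cultivars for single members. The median standard error of a member's change was 0.44 in each cultivar, and that of a difference between 2 changes is larger. The change was larger in H4 for 90 members and larger in Z2 for 60, and for 67 members the 2 changes lay within 0.5 of each other. They differed by 1 or more for 41 members, 16 with the larger change in H4 and 25 in Z2, and by 2 or more for 7. TRINITY_DN40622_c1_g1 changed by -5.21 in H4, from 77.8 and 63.8 FPKM in H4CK2 and H4CK3 to 0.30, 1.28 and 1.42 in H4T. In Z2 it changed by -2.09, from 13.9, 3.28 and 4.21 in Z2CK to 0.20 and 1.21 in Z2T2 and Z2T3. Among these 10 libraries, treated values were under 2 FPKM in both cultivars and the untreated ones did not overlap between the cultivars. The 2 left-out values, 0.87 in H4CK1 and 83.3 in Z2T1, went against this order by their labels. By level, H4CK1 stood near the treated libraries and Z2T1 near H4CK2 and H4CK3. TRINITY_DN40857_c0_g1 went the other way, with 559 and 428 in H4CK2 and H4CK3 and 116, 153 and 92.9 in H4T, against 886, 305 and 151 in Z2CK and 3.12 and 25.1 in Z2T2 and Z2T3. Here the untreated levels overlapped between cultivars and, in the libraries used, the treated ones did not, with changes of -2.04 in H4 and -5.06 in Z2. As both changes were used to choose the members, their difference was not tested.

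**Figure D3:**
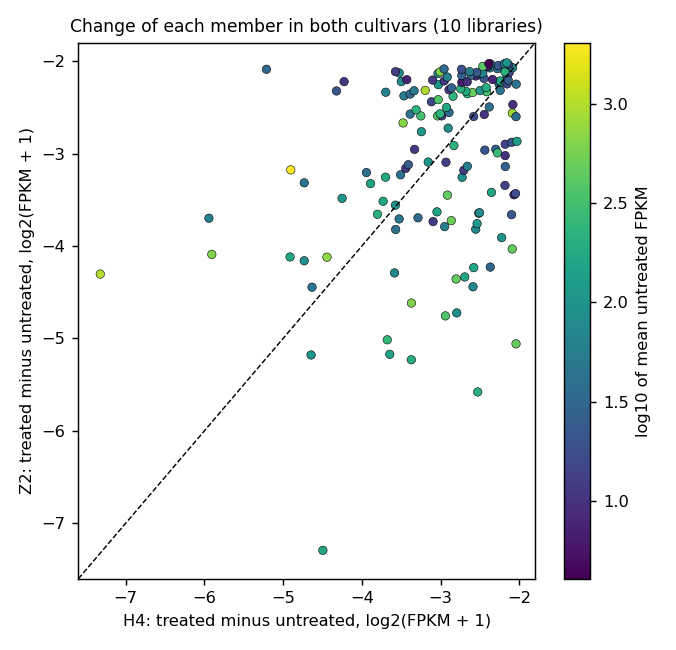
Each point is a member, placed by its treated minus untreated difference in H4 (x axis) and in Z2 (y axis), both in log2(FPKM + 1) over the 10 libraries of the rule, with the dashed line at equal change. The colour gives the log10 of the mean untreated FPKM. The rule cuts the cloud off near -2 on both axes, and single members reach -7.32 in H4 and -7.29 in Z2.

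The list ended within a gradual series of values. The last 3 members, TRINITY_DN38654_c2_g1, TRINITY_DN41247_c0_g1 and TRINITY_DN40065_c2_g5, had -2.03, -2.03 and -2.02 as the weaker of their 2 changes. The next 3 unigenes outside, TRINITY_DN35487_c0_g1, TRINITY_DN39888_c0_g1 and TRINITY_DN38344_c1_g1, had -2.02, -2.004 and -2.003. TRINITY_DN40065_c2_g5 had even values, with 100.4 and 99.3 FPKM in H4CK2 and H4CK3, 91.2, 82.6 and 81.4 in Z2CK, 22.2, 20.4 and 22.3 in H4T and 18.5 and 22.1 in Z2T2 and Z2T3. The library labelled H4CK1 held 17.6 and Z2T1 98.1 for it, again at the level of the opposite treatment.

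Some members share a Trinity read cluster, the DN number of the identifier, which groups transcripts with overlapping sequence. The 150 members came from 142 clusters, of which 8 held 2 members each, so these 16 members may share reads or belong to near-identical copies, and their values are uncertain to that degree. TRINITY_DN35888_c2_g4 and TRINITY_DN35888_c2_g3 had parallel values, at 1441 and 796 against 326 and 189 FPKM in H4CK2 and H4CK3, and at 28.2 and 20.7 against 3.25 and 6.72 in Z2T2 and Z2T3. TRINITY_DN34816_c0_g1 shared with TRINITY_DN34816_c0_g2 a low H4CK2 (17.1 FPKM) beside a high H4CK3 (406), but stayed at 17.0, 13.9 and 11.3 in H4T and changed by -2.53 in H4 and -5.58 in Z2. The clusters also held 368 tested unigenes outside the list. Of these, 51 (13.9%) were lower in every treated library used of both cultivars, against 10.3% of all tested unigenes, and their median change was 0.07 in H4 and 0.01 in Z2. Another 17 members had no other tested unigene in their cluster.

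In the libraries used by the rule, members had a larger spread within a group than the tested unigenes. The same libraries chose the members by large differences. Their median untreated level was also higher, at 5.73 against 3.01 on the log2(FPKM + 1) scale. The spreads and counts below are therefore a description. The median SD of log2(FPKM + 1) among the libraries used reached 0.48 for the members in H4CK and 0.53 in Z2CK, against 0.17 and 0.25 over all tested unigenes. In treated stems it reached 0.44 in H4T and 0.30 in Z2T, against 0.20 and 0.15. In H4CK, 31 members were higher in H4CK3 than in H4CK2 by 1 or more on the log2 scale and 15 were lower by 1 or more, against 5.33% and 4.31% of tested unigenes. The 31 had a median FPKM of 13.6 in H4CK2 and 89.4 in H4CK3, beside 78.4, 118 and 68.7 in Z2CK1 to Z2CK3. For them H4CK3 stood within the range of Z2CK while H4CK2 lay between Z2CK and the 5 treated libraries used, whose medians ran from 3.84 to 6.40. The medians of the 31 in the left-out libraries were 4.65 in H4CK1 and 31.5 in Z2T1. The 15 had 90.1 in H4CK2 and 39.8 in H4CK3, beside 26.3, 45.1 and 30.4 in Z2CK. Levels of the remaining 104 were 71.1 and 63.9 in H4CK2 and H4CK3.

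The libraries labelled H4CK1 and Z2T1 did not choose the members, so the members' values in them were not set by the rule. The libraries they are placed against did choose the members, high in untreated and low in treated stems. Positions of H4CK1 and Z2T1 are therefore a description, and the shares of all tested unigenes are not a like background. H4CK1 lay under both other H4CK libraries for all but 2 members, against 32.2% of all tested unigenes, and above all 3 H4T libraries for only 33 (32.3% of tested unigenes). By log2(FPKM + 1) it was closest to the mean of Z2T2 and Z2T3 for 97 members (42% of tested unigenes) and to that of H4T for 50 (22.8%). It was closest to H4CK2 and H4CK3 for 2 members (13.4%) and to Z2CK for 1 (21.8%). Its median distance over the members was 0.08 from the Z2T mean and -0.08 from the H4T mean, against -3.01 from the H4CK mean. Untreated by label, it thus held the members at the level of treated stems.

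Z2T1 showed the reverse. It lay above both other Z2T libraries for 147 members (34.3% of tested unigenes) and under all 3 Z2CK libraries for 43 (38.8%). For 80 members (26.9%) it was even above all 3 Z2CK libraries. Z2T1 was closest to the mean of H4CK2 and H4CK3 for 124 members (57.2%) and to Z2CK for 20 (15.3%), but to H4T for 4 (15.5%) and to Z2T2 and Z2T3 for 2 (12%). Its median distance over the members was 0.13 from the H4CK mean, 0.62 from the Z2CK mean and 3.26 from the Z2T mean. Among the 2832 tested unigenes that were lower in every treated library used of both cultivars, H4CK1 was not above all H4T for 67.3% and Z2T1 not under all Z2CK for 68.3%, against 117 and 107 of the 150 members.

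**Figure D4:**
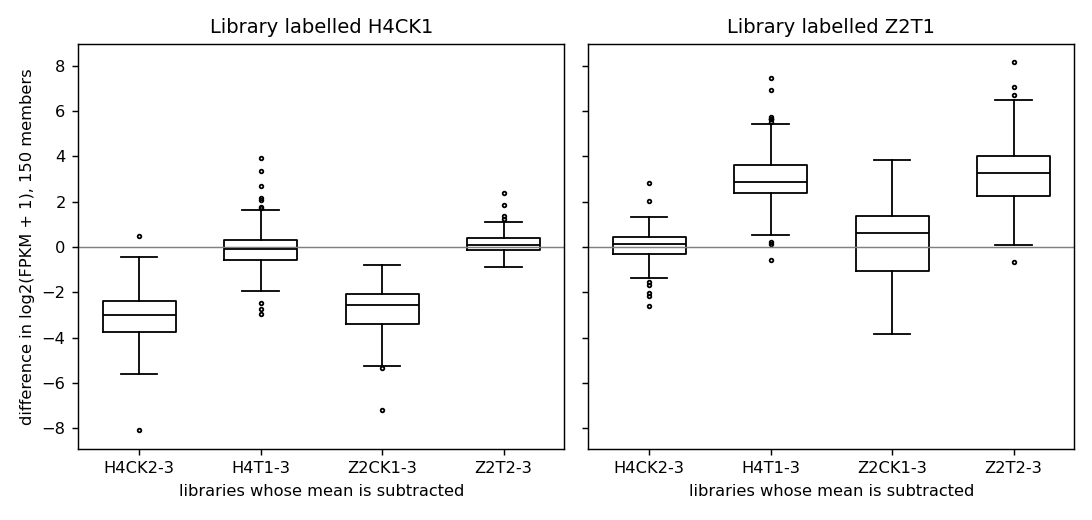
Boxes show, over the 150 members, log2(FPKM + 1) in the library labelled H4CK1 (left) or Z2T1 (right) minus the mean of the libraries named on the x axis, with the median as a line, the 25th to 75th percentile as the box and whiskers to 1.5 times its height. H4CK1 centres on 0 against Z2T2-3 (median 0.08) and H4T (median -0.08), and Z2T1 is nearest to 0 against H4CK2-3 (median 0.13).

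With all 12 labels taken as deposited, 20 members had every treated library under every untreated library in both cultivars, against 1.9% of tested unigenes. In 10 of the 12 libraries this was fixed by the rule, so the count describes the members only. In H4 alone 33 members met it (6.26% of tested unigenes) and in Z2 alone 43 (12.9%). Of the 20, 19 had a higher mean in Z2CK than in H4CK2 and H4CK3, as had 56 of all 150. Z2T1 lay near H4CK2 and H4CK3 for most members, so asking for it under all Z2CK favours members higher in Z2CK. The 19 are thus a description as well. TRINITY_DN41367_c1_g1 was the highest of the 20, with 102, 511 and 329 FPKM in H4CK and 1.98, 7.40 and 11.8 in H4T. In Z2 it had 1087, 423 and 688 in Z2CK and 339, 27.4 and 55.5 in Z2T. Its 4 groups were thus ordered as labelled, with H4CK1 lowest in H4CK and Z2T1 highest in Z2T. TRINITY_DN33757_c2_g1 had 91.5, 182 and 146 in H4CK and 14.3, 20.1 and 30.8 in H4T, beside 1007, 362 and 565 in Z2CK and 115, 48.9 and 57.8 in Z2T. Relative to the treated and untreated means of the cultivar, TRINITY_DN42047_c3_g4 had both the highest H4CK1 and the lowest Z2T1 of the members. Its FPKM was 14.2, 22.03 and 3.96 in H4CK and 0.82, 1.47 and 1.93 in H4T. In Z2 it was 26.3, 47.0 and 37.8 in Z2CK and 1.63, 2.38 and 4.23 in Z2T. Z2T1 was likewise low for TRINITY_DN41304_c2_g1 (25.3 FPKM, beside 20.8 and 26.7 in Z2T2 and Z2T3) and TRINITY_DN40491_c0_g5 (0.60, beside 0.29 and 0.64).

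Whether untreated stems of the cultivars held the members at different levels was tested as H4CK vs. Z2CK. The rule did not use this contrast, but it chose members by high values in these libraries relative to treated ones. The calls and shares of the members were therefore not free of the selection. The limma fit of the 10 libraries had 6 residual degrees of freedom, and p-values were adjusted by Benjamini-Hochberg over the 27628 tested unigenes. At an adjusted p under 0.05, 29 of the 150 members (19.3%) differed, near the 19.1% of all tested unigenes. Of these, 19 were lower and 10 higher in Z2CK, against 7.9% and 11.2% of tested unigenes in these directions. The median difference of the members was -0.38, with 94 members lower and 56 higher in Z2CK, against a median of 0.07 over all tested unigenes. Without adjustment 65 members had a p under 0.05, against 33.2% of tested unigenes. The libraries did not overlap between H4CK2 and H4CK3 and the 3 Z2CK libraries for 54 members that were lower in Z2CK (18.7% of tested unigenes) and 22 that were higher (27.2%).

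This result depended on single libraries. With all 12 libraries 0 members passed (0.561% of tested unigenes) and the median turned to 0.52, while 25 members (14.9% of tested unigenes) had an unadjusted p under 0.05 in limma and the lowest adjusted value was 0.0595. Leaving out H4CK2 gave 7 calls, 3 of them higher in Z2CK, against 7.59% of tested unigenes called. Leaving out H4CK3 gave 39, of which 25 were higher, against 14.3%. Without Z2CK1, Z2T2 or Z2T3 there were 19, 17 and 17 calls, against 14.8%, 16.3% and 16.3%. At an adjusted p under 0.001, 0 members passed with a log2 value of at least 2 (1.85% of tested unigenes) and 1 with a log2 value of at least 1 (2.38%), TRINITY_DN33617_c2_g1, named after its values were seen. It had 7.62 and 8.68 FPKM in H4CK2 and H4CK3 and 24.04, 24.95 and 22.3 in Z2CK (difference 1.44, SE 0.17, adjusted p = 0.000845 from limma), with 0.74 in H4CK1, and an adjusted p of 0.154 from limma with all 12 libraries. H4CK1 is low for nearly all members and enters H4CK only in the fit of 12 libraries.

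The largest differences between untreated stems were lower values in Z2CK. TRINITY_DN42267_c3_g2, with the values given above, was lower by -4.25 (SE 0.81, adjusted p = 0.00892 from limma). TRINITY_DN40622_c1_g1 followed with -3.37 (SE 0.55, adjusted p = 0.00432 from limma). TRINITY_DN34725_c2_g1 had 127 and 55.7 FPKM in H4CK2 and H4CK3 against 18.5, 14.1 and 7.33 in Z2CK, a difference of -2.66 (SE 0.56, adjusted p = 0.0132 from limma). In the 10 libraries used, these 3 had no overlap between the cultivars in untreated stems, and their treated values stayed under 18 FPKM. By their labels the left-out libraries went against both, with 5.61, 0.87 and 0.75 FPKM in H4CK1 and 1360, 83.3 and 85.0 in Z2T1. By level, H4CK1 stood near the treated libraries and Z2T1 near H4CK2 and H4CK3, as for most members. TRINITY_DN36987_c1_g2 was at 17.4 and 23.7 in H4CK2 and H4CK3 and at 5.74, 6.45 and 1.02 in Z2CK (difference -2.19, SE 0.53, adjusted p = 0.0228 from limma). In the fit of all 12 libraries none of these 4 passed, with adjusted p of 0.687 to 0.862 from limma. Over 26 alternatives the calls were kept in 19, 20, 18 and 14, and the adjusted p from limma reached 0.843, 0.763, 0.897 and 0.866. Without H4CK2, TRINITY_DN40622_c1_g1 alone of the 4 passed.

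Among the 10 members higher in Z2CK were both unigenes of the cluster DN39868. TRINITY_DN39868_c1_g2 had 74.5 and 61.1 FPKM in H4CK2 and H4CK3 and 517, 216 and 220.04 in Z2CK, a difference of 2.09 (SE 0.47, adjusted p = 0.0179 from limma). TRINITY_DN39868_c1_g1 had 147.7 and 182 against 965, 323 and 738. TRINITY_DN41367_c1_g2 showed a like pattern, with 214 and 245 in H4CK2 and H4CK3 and 1205, 387 and 1021 in Z2CK. All 3 had their highest value in Z2CK1 and no overlap between the cultivars in untreated stems, with H4CK1 also under every Z2CK library.

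Water-cultured stems were compared as H4T vs. Z2T. Here too the rule did not use the contrast but chose members low in these libraries relative to untreated ones. Their calls and shares were thus not free of the selection. Of the members, 12 of 150 (8%) passed in the limma fit of 10 libraries, against 15.7% of all tested unigenes, and 6 were higher and 6 lower in Z2T (8.98% and 6.71% of tested unigenes). No test compared these shares. The median standard error was 0.44 for a member and 0.264 for a tested unigene. The median difference was -0.23, against 0 over all tested unigenes. Without adjustment 23 members had a p under 0.05, against 28.8% of tested unigenes. Between the 3 H4T libraries and Z2T2 and Z2T3 there was no overlap for 33 members lower in Z2T (24% of tested unigenes) and 18 higher (24.8%).

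With all 12 libraries 1 member passed (0.641% of tested unigenes), 9 had an unadjusted p under 0.05 (13.2% of tested unigenes) and the median turned to 0.85. On the TPM scale 11 members passed, 4 higher and 7 lower in Z2T (7.83% and 8.39% of tested unigenes). After quantile normalization 33 passed, 6 higher and 27 lower (6.45% and 19.1%), and at an adjusted p under 0.001 there were 0 with a log2 value of at least 2 (1.96% of tested unigenes) or of at least 1 (2.45%). Without H4T1, H4T2 or H4T3 the count was 7, 5 and 6, against 13.9%, 11.2% and 11.2% of tested unigenes. Without Z2T2 or Z2T3 it was 2 and 1, against 8.4% and 8.56%. The split of the calls by direction thus moved with the scaling.

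TRINITY_DN40857_c0_g1, described above, had the largest difference, -3.52 (SE 0.85, adjusted p = 0.0249 from limma). TRINITY_DN34260_c1_g3 was at 163, 96.1 and 60.1 FPKM in H4T and at 11.4 and 11.0 in Z2T2 and Z2T3, lower by -3.02 (SE 0.68, adjusted p = 0.0188 from limma). It was also lower in untreated stems, with 757 and 303 in H4CK2 and H4CK3 against 98.1, 213 and 41.9 in Z2CK (difference -2.31, adjusted p = 0.0466 from limma). That call was kept in 7 of 26 alternatives, with adjusted p from limma of 0.0191 to 0.893, and was lost without H4CK2 (difference -1.65, adjusted p = 0.302) and without a filter (adjusted p = 0.165). TRINITY_DN40039_c1_g1 had 47.1, 30.4 and 57.5 in H4T and 6.89 and 4.77 in Z2T2 and Z2T3 (difference -2.72, SE 0.59, adjusted p = 0.0163 from limma). In these 3 H4T lay above Z2T2 and Z2T3, but Z2T1, with 78.7, 638 and 278 FPKM, lay under H4T in the first and above it in the others. H4CK1 held 17.0, 17.0 and 4.78 FPKM. TRINITY_DN41367_c1_g1 was higher in Z2T by 2.55 (SE 0.63, adjusted p = 0.0283 from limma), with all 3 H4T libraries under 12 FPKM. For these 4 the calls were kept in 14, 16, 17 and 15 of 26 alternatives, and the adjusted p from limma reached 0.585, 0.855, 0.884 and 0.301. TRINITY_DN39868_c1_g2 was at 2.21, 3.94 and 6.47 in H4T and at 16.0 and 30.5 in Z2T2 and Z2T3, a difference of 2.24 (SE 0.47, adjusted p = 0.0145 from limma). It was the member that also passed with all 12 libraries, at 2.54 (SE 0.44, adjusted p = 0.0353 from limma), and over the 26 alternatives its adjusted p from limma ran from 0.0078 to 0.144.

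**Figure D5:**
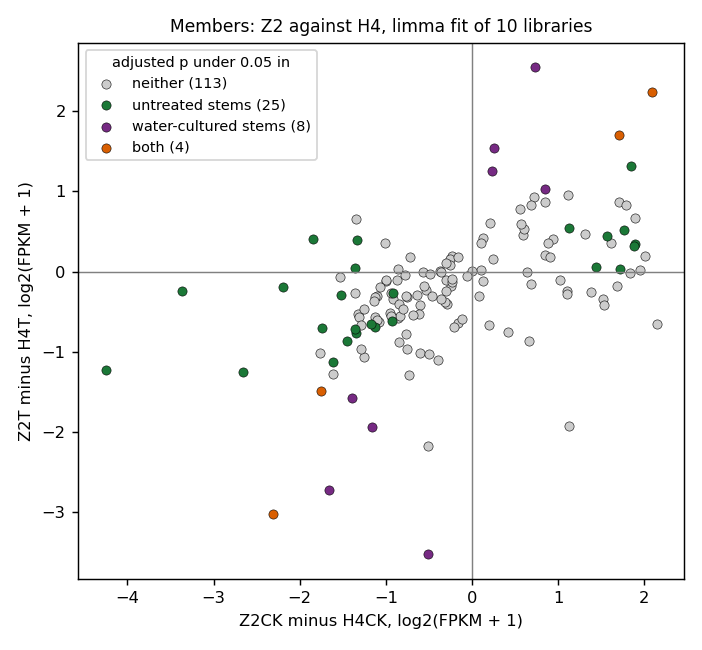
Each point is a member, placed by its Z2CK minus H4CK difference (x axis) and its Z2T minus H4T difference (y axis) in log2(FPKM + 1), from the limma fit of 10 libraries. Colours mark an adjusted p under 0.05 in untreated stems (25 members), in water-cultured stems (8), in both (4) or in neither (113).

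In both comparisons the called members were 4, of which 2 were higher and 2 lower in Z2 in each, and 0 were called in opposite directions. Of all tested unigenes, 7.64% were called in both in the same direction and 0.141% in opposite directions. The 2 libraries that took no part in the fit stood on the side of the other cultivar. For the 19 members called lower in Z2CK, Z2T1 lay above all 3 Z2CK libraries in 19 and nearer to the H4CK than to the Z2CK mean in 19. For the 10 called higher in Z2CK, it lay under all 3 Z2CK libraries in 10. Over all tested unigenes with such calls the shares were 94.9% and 98.9% for Z2T1. H4CK1 lay under all 3 H4T libraries for 6 of the 6 members called lower in Z2T and above them for 6 of the 6 called higher, against 98% and 93.5% of all tested unigenes with such calls.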

How the data were processed

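Stems of 2 ramie cultivars were sequenced in 12 libraries. The table the authors deposited gives FPKM with 2 decimals for 66881 Trinity unigenes, and no counts or gene names. Assembly and counting steps for them were not given in the sources used here. For reads mapped to a ramie genome, the study describes FPKM from RSEM. Columns were assigned by label, and 0 columns were left unassigned. The labels' extract protocol names libraries of other cultivars, not those of the sample titles.

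FPKM was used without further scaling, as log2(FPKM + 1). The 150 members and all lists were chosen with earlier results of these data known, by the rule that opens the report. Cultivar comparisons were made with the variance trend of limma 3.58.1 (R 4.3.3), for the 27628 unigenes reaching 1 FPKM in 3 or more libraries. Their p-values measure the spread between replicates of 5 pooled plants. All 4 groups of the 10 libraries used by the rule entered 1 fit, and all 12 were an alternative. Calls had a Benjamini-Hochberg adjusted p under 0.05, a looser limit than that of the study. The limits of the study's methods, 0.001 with a log2 value of 2, left 0 members. Its results give a fold of 2, tested as a log2 limit of 1. The fit was tested on simulated data. Alternatives were pseudocounts, filters, scalings, thresholds, a constant prior variance, a replicate block, fits of the groups compared and leaving out each library.

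Named members were the 10 with the largest changes, the 5 most abundant and up to 5 with the largest called difference in each cultivar comparison. Also named were the 3 most unequal between cultivars in each direction, those at the edge of the list and those in shared clusters. The last were those with the highest H4CK1 or the lowest Z2T1, relative to the treated and untreated means of the cultivar. Others are said to be chosen after their values were seen. Python 3.11.15, numpy 2.4.6, pandas 2.3.3 and matplotlib 3.10.9 served for tables and plots.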

Additional observations from a re-analysis of the deposited data

How the results depend on the processing

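The list kept 89 to 140 of its 150 members when 1 library was left out of the selection, with the lowest number without H4CK2, and 119 to 144 under other scalings. Pseudocounts of 0.1 and 0.01 kept 87 and 44. With all 12 libraries the median change of the members was -1.83 in H4 and -1.59 in Z2. In Z2 it was -3.23 and -3.37 with these pseudocounts and -3.12 after quantile normalization, and leaving out 1 library gave -2.82 to -2.47, against -2.94 to -2.69 in H4.

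For H4CK vs. Z2CK the 29 calls became 0 with all 12 libraries and with the thresholds of the study's methods (adjusted p 0.001, log2 value 2). They also became 0 with all 12 libraries under these thresholds (2 of 27628 tested unigenes called) or the replicate block (9 of 27628). With an adjusted p under 0.001 and a log2 value of at least 1 there was 1. Without a filter 7 members were called, beside 3301 of 65477 unigenes. A fit of the libraries compared gave 4 (2099 of 27628), and the replicate block 19 (3608 of 27628). With 1 library left out there were 7 (2096 of 27628) to 39 (3939 of 27628). The median of -0.38 became 0.52 with all 12 libraries. For H4T vs. Z2T the 12 calls became 1 with all 12 libraries and 0 with either pair of thresholds. The block on all 12 also gave 0, beside 36 of 27628 tested unigenes called. Without a filter 1 member was called, beside 4456 of 65477 unigenes. Quantile normalization gave 33 (7060 of 27628) and the replicate block 8 (3249 of 27628). With 1 library left out there were 1 (2366 of 27628) to 13 (4246 of 27628). The median of -0.23 became 0.85 with all 12 libraries and -0.60 after quantile normalization. The other planned settings kept both counts within 1.5 times. Fits of all 12 libraries with the study's thresholds or the block, and the log2 limit of 1 at 0.001, were added after the data were seen.

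Replicate numbers are shared by the groups. Between the cultivars, deviations of same-numbered libraries correlated at -0.18 to 0.06 in untreated and -0.03 to 0.02 in treated stems. For H4CK3 and Z2CK2, of unlike number, the value was 0.225. H4CK1 and Z2T1 are among these libraries and resemble another group than their own. The values therefore cannot show whether libraries pair by number. Treated and untreated stems of a cultivar were not compared in this way. Quantile normalization moved the median of all tested unigenes by -0.33 in Z2CK vs. Z2T, -0.25 in H4T vs. Z2T and -0.13 in H4CK vs. H4T, and median-of-ratios scaling by -0.12 in the last. What caused these changes was not tested. Leaving H4CK with 1 library assumes that it varies like the other groups.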
